A study of Homo sapiens with 17 samples.

Results

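The comparison described here sets CHP-134 cells held in 2 µM all-trans retinoic acid (ATRA) for 3 days against the same cells after 1 day at the same dose, and asks which genes moved only after the first day and which first-day changes went on or were undone. CHP-134 is an established human neuroblastoma line with extra copies of the oncogene MYCN, and it is unusually sensitive to retinoic acid. The 4 libraries compared are 2 of ATRA for 3 days and 2 of ATRA for 1 day, out of 17 RNA-seq samples in the series. Also used are 2 libraries of cells in ATRA for 6 days and 2 of cells given the solvent DMSO. All 8 culture libraries entered 1 fit with 4 groups. The DMSO cells were labelled as day 0, so time in culture and time in ATRA cannot be told apart. Cell death was part of the response that the study followed in this line, and in bulk RNA a loss of some cells and a change of RNA within each cell cannot be told apart either.

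ATRA enters cells, is carried by CRABP proteins and is bound by retinoic acid receptors (RARA, RARB and RARG), which pair with retinoid X receptors on DNA and, once bound, turn from repressors into activators. Genes with receptor sites of their own respond directly, and the products of those genes, among them transcription factors and signaling molecules, then alter further genes. In the neural crest lineage from which neuroblastoma arises, retinoic acid promotes an exit from the cell cycle and the growth of neurites. It also raises the enzymes of the CYP26 family, which break it down.

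Levels are given as CPM, a gene's count scaled to a common library size, for library 1 and then library 2 of a group. A gene was called changed with a false discovery rate (FDR, adjusted over all 20237 genes tested by edgeR's quasi-likelihood test) under 0.05 and more than a 2-fold difference, and each log2 fold change is given ± its SE, with n = 2 libraries per group. The study calls its replicates independent but the labels do not say whether the libraries of a group came from separate cultures, so p-values measure the spread between these samples, which may be technical. A positive value means higher at 3 days than at 1 day unless another pair is named. The label of the cells was checked first. The neuroblastoma factors HAND2 and GATA3 stood between 199 and 275 CPM at 3 days and between 229 and 303 CPM at 1 day. The catecholamine enzymes TH and DBH, which mark mature cells of this lineage, were both under 1 CPM at either time. The leukocyte gene CD3E and the Schwann cell factor SOX10 were at 0 in the 4 libraries, and the endothelial genes PECAM1, CDH5 and VWF were under 1 CPM. The 9 listed endothelium markers nonetheless summed to 46.8 to 51.4 CPM at 3 days, against 11.3 to 13.0 CPM at 1 day. Of this sum CLDN5, a tight junction protein, had 47.7 and 42.4 CPM at 3 days and 8.03 and 7.42 CPM at 1 day. The fibroblast list summed to 107.6 to 108.7 CPM at 3 days and 106.7 to 107.4 CPM at 1 day, the Schwann cell list to 20.7 to 22.5 CPM at 3 days and 24.8 to 26.1 CPM at 1 day, and the leukocyte list to 0.776 to 0.893 CPM at 3 days and 0.931 to 0.961 CPM at 1 day. Libraries held 31607051 to 39422897 counts, and the biological coefficient of variation of the fit was 2.65%.

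Between 1 and 3 days 827 genes were called changed, which is 4.09% of those tested. Of these, 580 were higher at 3 days (2.87%) and 247 were lower (1.22%). At any fold, 6980 genes passed the FDR (34.5%). Of these 3410 rose (16.9%) and 3570 fell (17.6%), and the median log2 fold change over all genes was 0.003. Of the 827, 635 (76.8%) had not been called at 1 day against DMSO, where 1.95% of genes were called up and 0.791% down. These second-wave genes were 428 rises and 207 falls. Some had moved on the first day below the limits of a call: 210 rises and 122 falls had a first-day change under 0.5 (log2). At 3 days against DMSO, 324 of the 428 rises were called up and 150 of the 207 falls were called down. These genes were selected through the same 3 day libraries, so the counts add no support of their own. The share of all genes called in that contrast was not counted. A further 131 genes that had risen on the first day rose again, and 26 that had fallen fell again (extended changes). A smaller number, 14 genes, rose and then fell, and 21 fell and then rose (reversed changes). The libraries of both times did not overlap in 427 second-wave rises, 207 second-wave falls, 130 extended rises, 26 extended falls, and 14 and 21 reversed genes. Separation of the libraries in a gene that passed the test therefore adds no support of its own. Its share over all genes tested was not counted. Many of the calls rest on low levels, since 244 of the second-wave rises and 86 of the second-wave falls had a mean under 1 CPM at both times. Of genes with at least 1 CPM, a limit set after the data were seen, 184 were second-wave rises and 121 second-wave falls. DESeq2 called 540 genes in place of 827, with 259 second-wave rises and 138 second-wave falls.

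**Figure D1:**
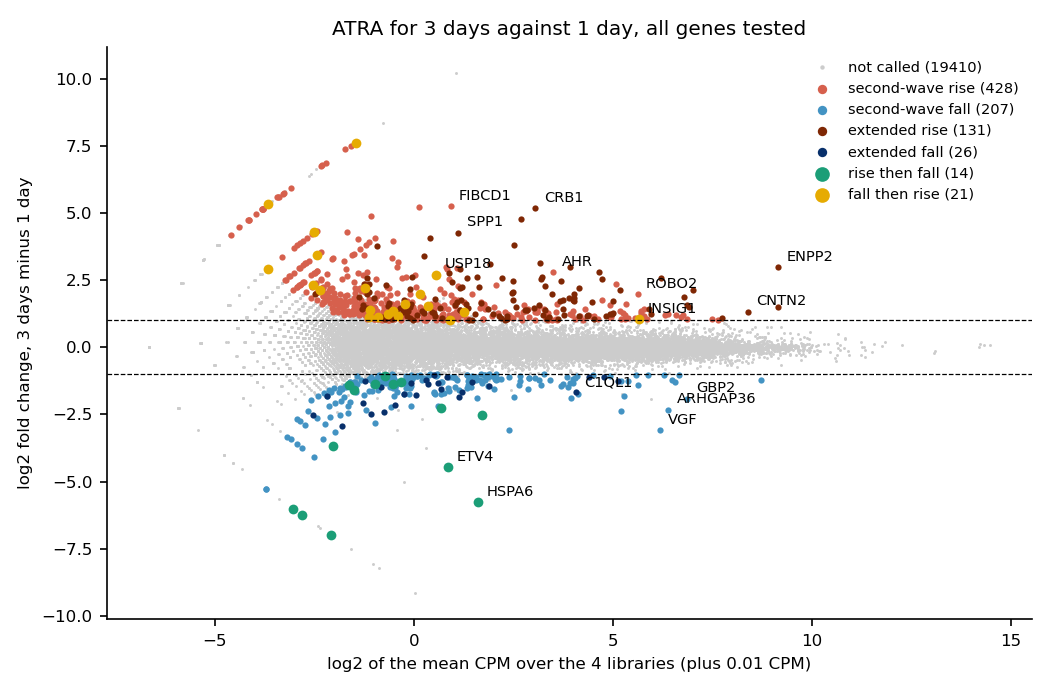
Log2 fold change at 3 days minus 1 day (vertical axis) against the log2 mean CPM over the 4 libraries (horizontal axis) for all 20237 genes tested, 1 point per gene, colored by class, with dashed lines at 2-fold. The labelled genes include ENPP2 at a log2 fold change of 2.98, CRB1 at 5.19, VGF at -3.08 and HSPA6 at -5.76.

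The largest second-wave rise among coding genes of at least 1 CPM was that of FIBCD1, which encodes a membrane receptor for acetylated structures such as chitin. It had 3.25 and 4.12 CPM at 3 days and 0.0801 and 0.106 CPM at 1 day (log2 fold change 5.26 ± 0.28, FDR 8.93e-18), and both 3 day libraries stood far above both 1 day libraries. The 3 day pair held 240 FIBCD1 counts and the 1 day pair 7. SCGN, a calcium-binding protein of neuroendocrine cells, had 1.56 and 1.04 CPM at 3 days and 0.133 and 0.0266 CPM at 1 day (3.96 ± 0.48), and its value was 5.43 without 1 day library 1 and 3.25 without 1 day library 2. Other large rises were those of MMRN2, a matrix protein of vessels (3.16 ± 0.36), and EPHA3, a receptor for ephrin-A ligands. EPHA3 had 3.32 and 2.92 CPM at 3 days and 0.4 and 0.426 CPM at 1 day (2.90 ± 0.20). The monocarboxylate transporter SLC5A8, the calcium store protein CASQ2, the cation channel TRPC5 and the phosphatase PPM1J rose by log2 fold changes of 2.54 to 2.7, and their levels at 3 days lay between 1.37 and 3.38 CPM. For TRPC5 the 1 day libraries had 0.374 and 0.0798 CPM, and its value of 2.58 became 4.04 without 1 day library 1 and 1.87 without 1 day library 2. At higher level, EGLN3, a prolyl hydroxylase that marks hypoxia-inducible factors for destruction, had 58.5 and 55.2 CPM at 3 days and 10.8 and 11.2 CPM at 1 day (2.37 ± 0.05), after no call on the first day (-0.16 for 1 day minus DMSO, FDR 0.0831). ROBO2, the axonal receptor for SLIT proteins, had 76.4 and 80.8 CPM at 3 days and 19.6 and 20.3 CPM at 1 day (1.98 ± 0.04). It had risen by 0.92 on the first day, just short of the 2-fold limit. Second wave therefore means not called on the first day, not silent on it: with a first-day change under 0.5 on the log2 scale as a further condition, 210 rises and 122 falls were left.

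Genes named by their size included 3 of the aryl hydrocarbon receptor, a ligand-activated transcription factor best known for sensing dioxins, for whose pathway no gene list was set. AHR itself had 20.8 and 18.8 CPM at 3 days and 2.78 and 2.93 CPM at 1 day (2.79 ± 0.09, FDR 2.44e-24). AHRR, the repressor that the receptor induces and that competes with it for DNA, had 1.02 and 1.46 CPM at 3 days and 0.0534 and 0.186 CPM at 1 day (3.34 ± 0.42). This value was 2.72 without 1 day library 1 and 4.46 without 1 day library 2. A second entry of the table under the symbol AHRR had 3.60 and 3.94 CPM at 3 days and 0.427 and 0.532 CPM at 1 day, and since reads may be split between both entries the size of each change is uncertain. CYP1A1, the enzyme that serves as the standard readout of the receptor, was an extended rise, with 9.95 and 11.4 CPM at 3 days and 0.827 and 0.692 CPM at 1 day (3.81 ± 0.16). In all 3 both 3 day libraries stood above both 1 day libraries. The AHRR promoter is printed because it holds the letters the receptor is known to bind, TNGCGTG on either strand (the xenobiotic response element, in capitals). The stretch is from position -150 to -1 before the RefSeq start on the plus strand, chr5:321564-321713 of GRCh38.p14.
AHRR: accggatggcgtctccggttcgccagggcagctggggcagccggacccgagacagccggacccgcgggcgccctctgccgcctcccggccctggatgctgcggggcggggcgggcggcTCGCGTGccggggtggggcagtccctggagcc
The motif starts 32 bases before the start site. It is found in 5.51% of the 35116 RefSeq promoter windows searched (250 bases before to 50 after a start), and the window of CYP1A1 holds none. Among second-wave rises with a window, 16 of 226 hold it (7.08%), against 9.43% of tested genes with a window.

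Second-wave falls were led by VGF. VGF, the precursor of secreted neuropeptides that nerve growth factor and cyclic AMP induce in neurons, had 15.5 and 15.1 CPM at 3 days and 132 and 127 CPM at 1 day (-3.08 ± 0.04, FDR 2.92e-35). The first day had gone the other way: VGF stood at 70.7 and 69.6 CPM in DMSO cells, so the first-day change was a rise of 0.88 on the log2 scale that passed the FDR but not the 2-fold limit. DLK1, a Notch-like membrane protein of immature cells of the sympathoadrenal lineage, had 11.8 and 12.0 CPM at 3 days and 61.7 and 62.4 CPM at 1 day (-2.38 ± 0.05). In both genes the 3 day libraries were below the 1 day libraries. ARHGAP36, which blocks protein kinase A and activates Hedgehog signaling, had 29.0 and 27.0 CPM at 3 days and 140.3 and 139.9 CPM at 1 day (-2.32 ± 0.04). GBP2, an interferon-inducible GTPase, had 49.2 and 49.4 CPM at 3 days and 184 and 185 CPM at 1 day (-1.91 ± 0.03). The Wnt inhibitor DKK1 fell by 2.17, the neuronal membrane protein ISLR2 by 1.88, the tetraspanin CD9 by 1.87, the adenylyl cyclase ADCY8 by 2.22 and the kinase GRK1 by 1.82, all on the log2 scale. ADCY8 and GRK1 were near 1 CPM at 1 day. DLK1 is one of the genes whose fall did not last: it had 57.2 and 58.7 CPM at 6 days. Of the 207 second-wave falls, 103 were lower still at 6 days than at 3 days by their mean, and of the 428 rises 367 were higher still.

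The VGF promoter is printed because it carries the palindrome TGACGTCA, the cyclic AMP response element (in capitals). The stretch runs from -150 to -1 on the minus strand, chr7:101165570-101165719 of GRCh38.p14 (RefSeq).
VGF: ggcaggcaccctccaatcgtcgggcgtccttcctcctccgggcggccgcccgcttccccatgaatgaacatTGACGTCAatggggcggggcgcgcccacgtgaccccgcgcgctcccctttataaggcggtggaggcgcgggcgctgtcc
The element starts 79 bases before the start site. It is found in 1.85% of all windows, and in 5 of 113 second-wave falls with a window (4.42%) against 3.62% of tested genes.

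**Figure D2:**
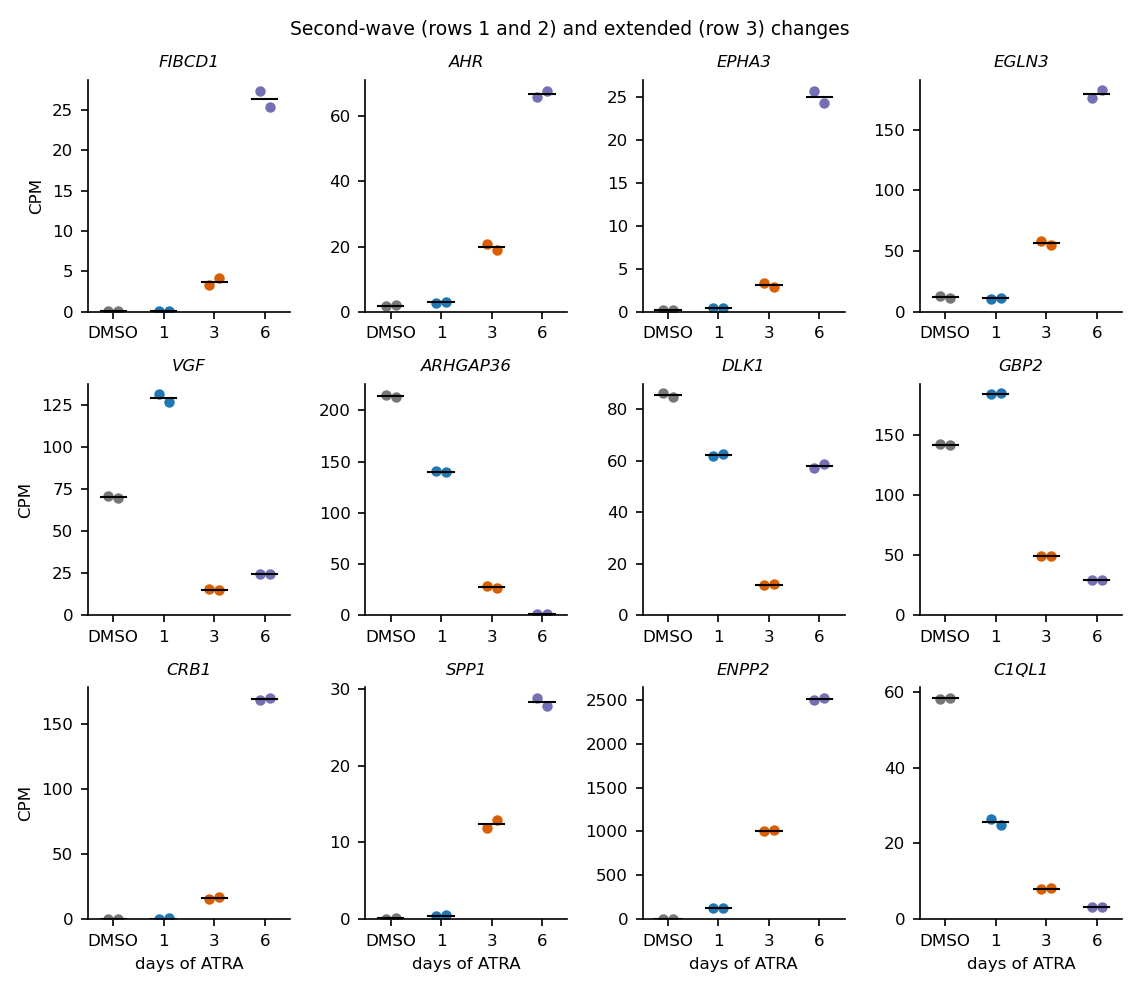
CPM of 12 genes in each of the 8 culture libraries (points, 2 per group, with the mean as a bar) for DMSO and 1, 3 and 6 days of ATRA, each panel with its own vertical axis from 0. FIBCD1, AHR, EPHA3 and EGLN3 are low until 1 day and rise after it, while VGF and GBP2 are highest at 1 day and far lower at 3 days.

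Extended rises were led by CRB1 and SPP1. CRB1, a polarity protein of epithelial and photoreceptor cells, had 15.1 and 17.1 CPM at 3 days and 0.347 and 0.532 CPM at 1 day (5.19 ± 0.13, FDR 1.21e-26). Only 1 of the DMSO libraries had a CRB1 read, at 0.0256 CPM. SPP1, the secreted phosphoprotein osteopontin, had 11.9 and 12.9 CPM at 3 days and 0.4 and 0.505 CPM at 1 day (4.76 ± 0.15). GDF10, a ligand of the transforming growth factor family, had 4.08 and 4.09 CPM at 3 days and 0.133 and 0.293 CPM at 1 day (4.24 ± 0.22, and 4.90 without 1 day library 2). The vessel ligand ANGPT1, which activates the receptor TIE2, the atypical chemokine receptor ACKR3, the adaptor SKAP1 and the unnamed locus AC008571.2 rose by 3.10 to 4.07. The highest level of the class was that of ENPP2, autotaxin, the secreted enzyme that makes lysophosphatidic acid. ENPP2 had 999 and 1014 CPM at 3 days and 127 and 128 CPM at 1 day (2.98 ± 0.02, FDR 2.22e-44), and DMSO cells had 4.36 and 4.87 CPM. CNTN2, an adhesion protein of growing axons, had 480.3 and 478 CPM at 3 days and 189.7 and 191 CPM at 1 day (1.33 ± 0.02).

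Extended falls were fewer. C1QL1, a secreted protein that organizes synapses, had 7.84 and 8.17 CPM at 3 days and 26.6 and 24.8 CPM at 1 day (-1.68 ± 0.07), and DMSO cells had 58.3 and 58.5 CPM. STC1, the secreted hormone stanniocalcin, had 20.8 and 20.4 CPM at 3 days and 48.8 and 49.7 CPM at 1 day (-1.26 ± 0.04). The cadherin CDH15 fell by 2.15, TMEM56 by 1.83, the synapse organizer CBLN4 by 1.78, PLD5 by 1.74, ZFPM2, a cofactor of GATA factors, by 1.66, the calcium release channel RYR3 by 1.54 and the glucuronyltransferase B3GAT2 by 1.44. Each of these had at most 5.64 CPM at 1 day, and in each the 3 day pair lay below the 1 day pair. The receptor NOTCH1 had 1.24 and 1.01 CPM at 3 days and 2.16 and 2.66 CPM at 1 day (-1.10 ± 0.21). It lost the 2-fold limit without 1 day library 2 (-0.94) or 3 day library 2 (-0.95).

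What became of the first day as a whole was counted at any fold with an FDR under 0.05. Both contrasts share the 1 day libraries, so an error in these moves a gene's first-day change and its later change in opposite directions. Of the 394 genes that rose more than 2-fold on the first day, 203 (51.5%) rose further, 25 (6.35%) moved back and 166 did not pass. Of the 160 that fell, 36 (22.5%) fell further, 31 (19.4%) moved back and 93 did not pass. Over all genes tested 16.9% rose and 17.6% fell at this FDR, so both shares of the first-day falls lie near those of all genes. With the call rule of more than 2-fold on both sides, 3.55% of first-day rises and 13.1% of first-day falls were reversed. Over all genes tested 1.22% were called down and 2.87% up between 1 and 3 days. When the first contrast used 1 day library 1 and the second used 1 day library 2, 8 genes rose and then fell and 11 fell and then rose. With the libraries exchanged these counts were 10 and 13. The fit on all libraries gave 14 and 21, and a fit without 1 day library 1 gave 45 and 38. Without 1 day library 2 the counts were 16 and 43. At any fold, the first-day rises that moved back then numbered 56 without 1 day library 1, and the first-day falls that moved back 48 without library 1 and 56 without library 2. DESeq2 gave 4 and 9 reversals. Low levels were common, since 9 of the 14 and 13 of the 21 had a mean under 1 CPM at both times. Protein-coding genes were 9 of the 14 and 14 of the 21, and 5 and 4 entries overlap another gene, where reads may be split.

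**Figure D3:**
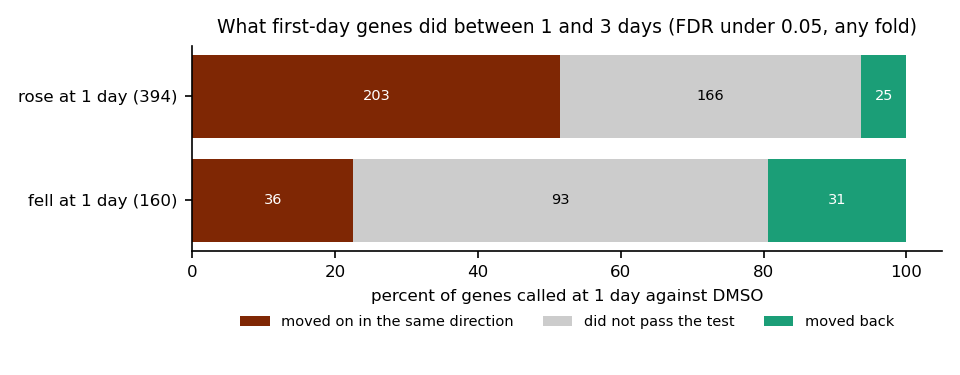
Percent of the 394 genes that rose and of the 160 that fell more than 2-fold at 1 day against DMSO, split by what they did between 1 and 3 days at an FDR under 0.05 and any fold, with the number of genes in each segment. Moving on was commoner than moving back among rises (203 against 25), and the counts were 36 against 31 among falls. Over all genes tested 16.9% rose and 17.6% fell at the same FDR.

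The genes that rose and then fell at measurable levels were led by HSPA6, the strictly stress-inducible member of the HSP70 chaperones. HSPA6 had 0.872 and 0.704 CPM in DMSO cells, 5.63 and 6.44 CPM at 1 day and 0.0638 and 0.149 CPM at 3 days. The fall was -5.76 ± 0.31 (FDR 1.16e-17, and -6.49 without 3 day library 2), and it carried HSPA6 below its DMSO level (-2.84 for 3 days minus DMSO). HSPA6 has a near-identical neighbor, the pseudogene HSPA7, so reads may be split between them. The next 3 belong to the response to receptor tyrosine kinases and ERK. ETV4 and ETV5 are ETS transcription factors that ERK signaling induces, and SPRY4 is a feedback inhibitor of the same cascade. ETV4 had 0.487 and 0.909 CPM in DMSO cells, 3.5 and 3.46 CPM at 1 day and 0.128 and 0.179 CPM at 3 days (-4.46 ± 0.33). Like HSPA6 it stood below DMSO at 3 days (-2.13), but at 6 days it had 1.34 and 1.12 CPM, above both DMSO libraries. ETV5 had 0.898 and 1.17 CPM in DMSO cells, 5.02 and 6.09 CPM at 1 day and 0.861 and 1.07 CPM at 3 days (-2.51 ± 0.18), and it stood at 8.78 and 10.2 CPM at 6 days, above its 1 day level. SPRY4 had 0.462 and 0.469 CPM in DMSO cells, 2.94 and 2.34 CPM at 1 day and 0.414 and 0.686 CPM at 3 days (-2.25 ± 0.27). At 6 days SPRY4 was back up at 1.09 and 1.12 CPM, below its 1 day level. In all 4 genes both 1 day libraries stood above the DMSO and 3 day libraries. ETV1, the third factor of the ETV4 and ETV5 family, instead rose on both steps, with 49.8 and 47.8 CPM at 3 days and 15.5 and 14.2 CPM at 1 day (1.72 ± 0.05). RNU6-33P, a copy of the U6 small RNA, also met the rule, at about 1 CPM. It had an FDR of 0.0585 by DESeq2 (edgeR 0.00612), 0.0663 without 1 day library 1 and 0.135 without 3 day library 1, and its log2 fold change of -1.29 became -1.97 without 3 day library 2.

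The HSPA6 promoter is printed because it holds a full heat shock element, the run of GAA, TTC and GAA with a pair of free bases after each of the first units, here on the other strand (in capitals). The stretch runs from -150 to -1 on the plus strand, chr1:161524390-161524539 of GRCh38.p14 (RefSeq).
HSPA6: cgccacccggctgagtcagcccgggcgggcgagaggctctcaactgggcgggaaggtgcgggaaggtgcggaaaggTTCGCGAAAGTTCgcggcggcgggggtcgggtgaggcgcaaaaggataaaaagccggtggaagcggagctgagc
The element starts 74 bases before the start site, and 0.49% of all windows hold one on either strand.

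**Figure D4:**
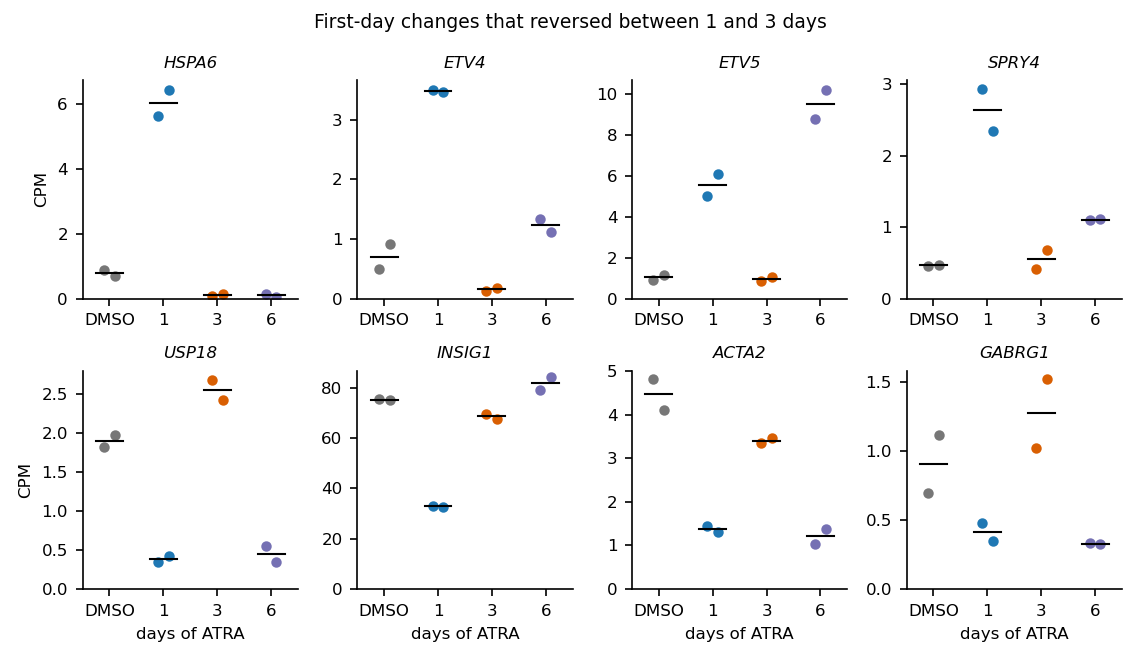
CPM of 8 reversed genes in each of the 8 culture libraries (points, 2 per group, with the mean as a bar) for DMSO and 1, 3 and 6 days of ATRA, each panel with its own vertical axis from 0. HSPA6, ETV4, ETV5 and SPRY4 are higher at 1 day than in DMSO and at 3 days. Of these, ETV5 (8.78 and 10.2 CPM), ETV4 (1.34 and 1.12 CPM) and SPRY4 (1.09 and 1.12 CPM) are higher again at 6 days than at 3 days. USP18, INSIG1, ACTA2 and GABRG1 are lower at 1 day than in DMSO and at 3 days. USP18, ACTA2 and GABRG1 are low again at 6 days, while INSIG1 is at 79.1 and 84.2 CPM.

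Of the genes that fell and then rose, INSIG1 had the highest level. INSIG1 holds the sterol sensor in the endoplasmic reticulum and is itself a target of the sterol-regulated factors SREBF1 and SREBF2. It had 75.4 and 75.0 CPM in DMSO cells, 33.0 and 32.7 CPM at 1 day and 69.7 and 67.6 CPM at 3 days (1.06 ± 0.04, FDR 5.24e-22). USP18, which removes the ubiquitin-like protein ISG15 and restrains interferon signaling, had 1.82 and 1.96 CPM in DMSO cells, 0.347 and 0.426 CPM at 1 day and 2.68 and 2.42 CPM at 3 days (2.71 ± 0.27), and 0.547 and 0.353 CPM at 6 days. It was the 1 member called among 18 interferon response genes (4.09% of all genes called), whose median was -0.01. ACTA2, smooth muscle actin, had 4.82 and 4.10 CPM in DMSO cells, 1.44 and 1.3 CPM at 1 day and 3.35 and 3.46 CPM at 3 days (1.31 ± 0.19), and 1.03 and 1.38 CPM at 6 days. GABRG1, a receptor subunit, had 1.02 and 1.52 CPM at 3 days and 0.48 and 0.346 CPM at 1 day (1.62 ± 0.34), with 0.334 and 0.323 CPM at 6 days, so in USP18, ACTA2 and GABRG1 the 6 day libraries lay below both 3 day libraries. The adaptor ASB4, the kinesin KIF19, the actin-binding protein SYNPO and AL365209.1 also met the rule, with log2 fold changes of 1.01 to 2.00 and no library above 2.68 CPM at 3 days. ASB4 too was lower at 6 days than at 3 days. INSIG1 (79.1 and 84.2 CPM at 6 days), KIF19 (11.3 and 11.3 CPM), SYNPO (8.66 and 8.94 CPM) and AL365209.1 (5.68 and 4.53 CPM) instead went on up. Of the 21 genes that fell and then rose, 11 were higher still at 6 days than at 3 days by their mean. SYNPO passed the 2-fold limit narrowly and missed it with DESeq2 size factors in edgeR (0.991), by DESeq2 (0.995), without 1 day library 1 (0.821) and without 3 day library 1 (0.907).

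Other sterol genes were read from a list. Of 26 cholesterol synthesis genes tested, 23 rose between 1 and 3 days at an FDR under 0.05 and none fell, against 16.9% of all genes that rose, and the median log2 fold change was 0.65. Only INSIG1 and FDFT1, squalene synthase, passed 2-fold. On the first day 23 of the 26 had fallen (13.3% of all genes), with a median of -0.50, and the median of 3 days minus DMSO was 0.11. FDFT1 had 133 and 133 CPM in DMSO cells, 77.1 and 75.0 CPM at 1 day and 156 and 156 CPM at 3 days (1.04 ± 0.03). HMGCS1, an early enzyme of the pathway, had 161 and 159.9 CPM in DMSO cells, 87.1 and 86.5 CPM at 1 day and 148 and 149 CPM at 3 days (0.77 ± 0.03). MSMO1, a sterol demethylase, also dipped and returned to about its DMSO level (0.89 ± 0.04 for 3 days minus 1 day, 0.02 for 3 days minus DMSO). SREBF2, the factor that drives the pathway, had 250.1 and 256 CPM in DMSO cells, 203 and 203 CPM at 1 day and 324 and 321 CPM at 3 days (0.67 ± 0.02). In these 4 genes both 1 day libraries lay below the DMSO and the 3 day libraries.

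Immediate early genes, which include the ERK feedback genes, fell more often than they rose. Of 29 tested, 14 fell (17.6% of all genes) and 2 rose at an FDR under 0.05, with 5 calls down, no call up and a median of -0.42. On the first day the median had been 0.40, with 15 that rose (13.1% of all genes) and 3 that fell (13.3%). DUSP4, a nuclear phosphatase of ERK, had 29.0 and 26.8 CPM in DMSO cells, 53.5 and 51.5 CPM at 1 day and 22.5 and 21.1 CPM at 3 days (-1.27 ± 0.05). SPRY2 had 1.85 and 2.30 CPM at 3 days and 6.59 and 5.53 CPM at 1 day (-1.54 ± 0.15), and ARC, a synaptic plasticity gene, had 2.84 and 2.51 CPM at 3 days and 5.55 and 6.44 CPM at 1 day (-1.17 ± 0.14). FOSL1 was called at under 1 CPM, with 2 counts at 3 days and 33 at 1 day, a ratio of 0.0701 with an exact 95% counting interval of 0.00815 to 0.274. DUSP6, the cytoplasmic ERK phosphatase, fell by 0.87 ± 0.21 and so was not called, but it passed 2-fold without 3 day library 2 (-1.06). The members that rose were JUN, by 0.25, and JUND, by 0.12.

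**Figure D5:**
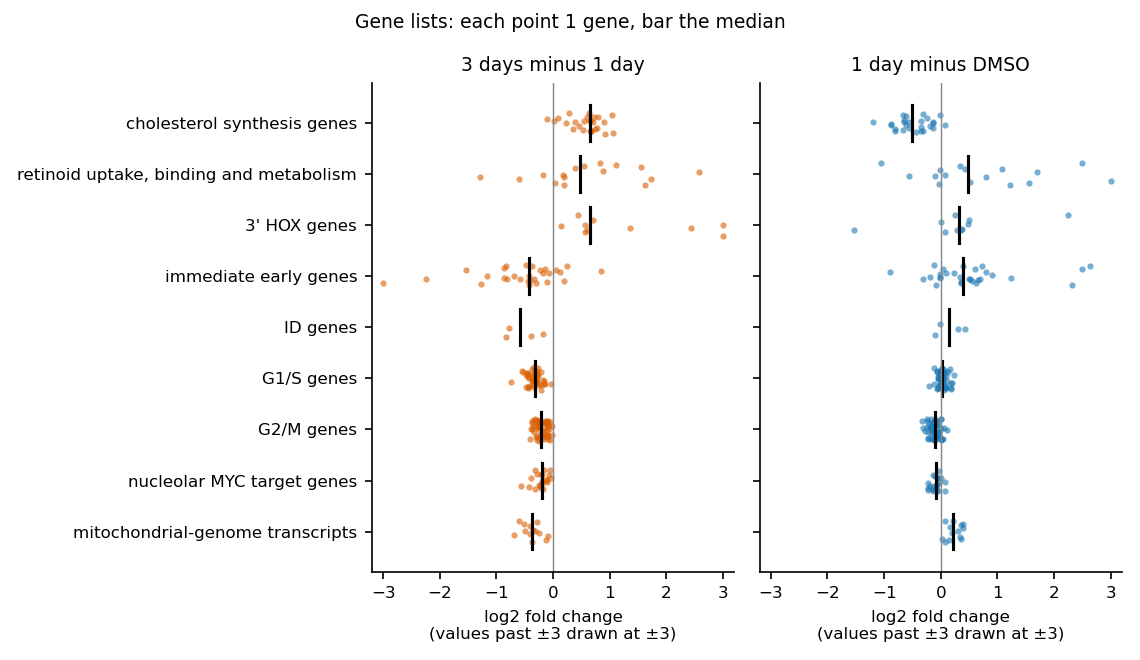
Log2 fold changes of the members of 9 gene lists (1 point per gene, the bar is the list's median, values past 3 in size drawn at 3) for 3 days minus 1 day on the left and 1 day minus DMSO on the right. The cholesterol genes lie to the right on the left panel (median 0.65) and to the left on the right panel (median -0.50), and the immediate early genes do the reverse (-0.42 and 0.40), with the 1 day libraries shared by both panels.

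Genes of the retinoid pathway were read from 4 lists. Of 6 retinoid receptor genes 4 rose at an FDR under 0.05 (16.9% of all genes) and RXRG, a retinoid X receptor of neurons and muscle, was called, with 7.24 and 7.31 CPM at 3 days and 3.26 and 3.11 CPM at 1 day (1.19 ± 0.11). RARB, the receptor gene with a receptor site in its own promoter, had 15.1 and 15.8 CPM at 3 days and 7.47 and 7.98 CPM at 1 day. Its log2 fold change of 0.996 ± 0.08 fell just short of 2-fold, and it passed the limit with a minimum count of 50, with only the 4 libraries in the fit, without 1 day library 2 (1.05) and without 3 day library 1 (1.03). RARA, the receptor through which ATRA acts in most cells, had 238 and 234 CPM at 3 days and 172 and 164 CPM at 1 day (0.49 ± 0.03). Of 16 genes for retinoid uptake, binding and metabolism 10 rose and 1 fell at an FDR under 0.05, with 4 calls up (2.87% of all genes) and 1 down (1.22%) and a median of 0.47. CYP26B1, which degrades retinoic acid, had 8.26 and 7.79 CPM at 3 days and 1.36 and 1.3 CPM at 1 day (2.59 ± 0.14). CRABP1, the cytoplasmic binding protein, had 19.6 and 19.4 CPM at 3 days and 6.14 and 5.64 CPM at 1 day (1.73 ± 0.07). ALDH1A2, which makes retinoic acid, rose by 1.62 ± 0.33 at about 1 CPM, and the other calls, DHRS3 up and RBP4 down, were under 1 CPM. Of 14 other retinoic acid target genes 7 rose and 3 fell at an FDR under 0.05, with changes between -0.65 and 1.42 and a median of 0.13. TGM2, a long-known target gene and the 1 call among them, had 28.5 and 28.9 CPM at 3 days and 10.9 and 10.6 CPM at 1 day (1.42 ± 0.07). The 4 calls among 10 genes of the 3' HOX clusters, HOXA3, HOXA4, HOXB3 and HOXB5, were rises of genes under 1 CPM, and HOXB5 had no count at 1 day.

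The RARB promoter is printed with its retinoic acid response element, a direct repeat of the receptor's site with a spacer of 5 bases (DR5, in capitals). The stretch runs from -150 to -1 on the plus strand before the start of the transcript whose window holds it, chr3:25428113-25428262 of GRCh38.p14 (RefSeq).
RARB: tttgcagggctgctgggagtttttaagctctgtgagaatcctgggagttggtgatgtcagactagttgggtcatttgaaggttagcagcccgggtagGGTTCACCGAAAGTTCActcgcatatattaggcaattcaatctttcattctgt
The element starts 53 bases before the start site. It is found in 0.0883% of all windows on either strand, in 9 of 11734 tested genes with a window, and in no called gene's window.

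The ID genes, targets of bone morphogenetic protein (BMP) signaling, fell in the same interval. ID1 to ID4 encode inhibitors of the basic helix-loop-helix factors that drive differentiation, and SMAD proteins activate them. All 4 fell at an FDR under 0.05 (17.6% of all genes) and none passed 2-fold. ID1 had 60.4 and 55.2 CPM at 3 days and 104 and 99.95 CPM at 1 day (-0.82 ± 0.04), ID2 had 34.1 and 32.7 CPM at 3 days and 58.3 and 56.5 CPM at 1 day (-0.78 ± 0.05), and neither had passed the FDR on the first day. ID4 fell by 0.38 ± 0.07 and ID3 by 0.18 ± 0.03, after first-day rises of 0.43 and 0.30. Receptors and SMADs of the pathway showed no call among 10 tested (4.09% of all genes called). At any fold 2 rose (16.9% of all genes) and 1 fell (17.6%). Of 11 BMP ligand genes, GDF10 and, at under 1 CPM, BMP5 were called up (2.87% of all genes). Of 9 other target genes of BMP signaling 4 rose (16.9% of all genes) and 4 fell (17.6%) at an FDR under 0.05. There was 1 call each way (2.87% of all genes up and 1.22% down). RUNX2, a transcription factor of bone, was called down at under 1 CPM, with 0.319 and 0.358 CPM at 3 days and 0.747 and 0.905 CPM at 1 day (-1.28 ± 0.37), and DLX5, a homeobox gene, had 10.5 and 9.93 CPM at 3 days and 3.95 and 3.96 CPM at 1 day (1.37 ± 0.10).

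Cell cycle genes moved together by small amounts. Of 50 G1/S genes 49 fell at an FDR under 0.05, against 17.6% of all genes, with no call, a median of -0.32 and changes between -0.75 and -0.04. On the first day 13 of them had risen (13.1% of all genes) and 2 had fallen (13.3%), with a median of 0.03. RRM2, the small subunit of ribonucleotide reductase, had 271 and 267 CPM at 3 days and 390.1 and 382 CPM at 1 day (-0.52 ± 0.02). Of 55 G2/M genes 42 fell and none rose, with a median of -0.21. Here 30 had already fallen on the first day (13.3% of all genes, median -0.11). MKI67, the proliferation marker, had 371 and 375 CPM at 3 days and 450.0 and 432 CPM at 1 day (-0.24 ± 0.02). TOP2A, the topoisomerase of mitotic chromosomes, fell by 0.27 ± 0.02. Of 22 nucleolar targets of MYC proteins 18 fell (median -0.20), and MYCN itself had 1757 and 1761 CPM at 3 days and 2168 and 2117 CPM at 1 day (-0.28 ± 0.02) after a first-day rise of 0.22. CDKN1C, an inhibitor of cyclin-dependent kinases, had 6.50 and 5.82 CPM at 3 days and 2.48 and 2.55 CPM at 1 day (1.29 ± 0.12), and CDKN1A had 120.1 and 124 CPM at 3 days and 84.1 and 82.4 CPM at 1 day (0.55 ± 0.03). In each of these genes the 3 day and 1 day libraries did not overlap.

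Calls among genes of cell death are set against 4.09% called over all genes. Of 28 entries for pro-apoptotic genes, BMF, which binds and blocks survival proteins of the BCL2 family, was the 1 call, with 19.6 and 19.6 CPM at 3 days and 6.65 and 7.85 CPM at 1 day (1.44 ± 0.08), and the median was -0.07. None of 11 survival genes was called. BCL2 had 4.75 and 4.65 CPM at 3 days and 8.49 and 7.45 CPM at 1 day (-0.76 ± 0.12). Of 29 p53 target genes, TP53INP1, with 72.6 and 74.6 CPM at 3 days and 29.1 and 31.2 CPM at 1 day (1.29 ± 0.04), and PLK2 (1.05 ± 0.09) were called up, TIGAR was called down (-1.21 ± 0.16), and the median was -0.04.

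Neuronal genes split in both directions. Of 72 axon guidance genes, 6 were called up and 6 down, against 4.09% of all genes in both directions, with a median of 0.05. At levels of at least 1 CPM besides EPHA3 and ROBO2, the semaphorin receptor PLXNA4 had 25.9 and 24.8 CPM at 3 days and 7.50 and 6.78 CPM at 1 day (1.83 ± 0.07), and EPHA8 and the guidance protein DRAXIN rose by 1.15 and 1.07. SEMA4G passed 2-fold narrowly (1.01) and missed it without 1 day library 2 (0.889), without 3 day library 2 (0.936), by DESeq2 (0.994) and with DESeq2 size factors in edgeR (0.993). SLIT3, a ligand of the ROBO receptors, had 24.7 and 24.3 CPM at 3 days and 58.7 and 58.5 CPM at 1 day (-1.26 ± 0.05). DCC, the netrin receptor, had 1.31 and 1.70 CPM at 3 days and 3.76 and 3.51 CPM at 1 day (-1.27 ± 0.18), and EPHB4 and SEMA3D fell by 1.69 and 1.38. Of 42 neural adhesion genes, 4 were called up and 6 down. CNTN2 and NCAM2 (1.52 ± 0.24) were the calls up of at least 1 CPM. CNTN1 had 6.63 and 7.31 CPM at 3 days and 18.2 and 19.8 CPM at 1 day (-1.45 ± 0.08), ALCAM had 51.9 and 50.7 CPM at 3 days and 105 and 107 CPM at 1 day (-1.05 ± 0.03), and NEGR1 and LRRTM1 fell by 1.52 and 1.37. CNTN5 fell by 1.02 and lost the call without 1 day library 1 (-0.968). None of 36 neuronal cytoskeleton genes was called, while 21 of them rose (16.9% of all genes) and 5 fell (17.6%) at an FDR under 0.05.

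Growth factors and their receptors were called in both directions. BDNF, the neurotrophin, had 6.47 and 7.52 CPM at 3 days and 1.15 and 1.62 CPM at 1 day (2.34 ± 0.14), and NGFR, the neurotrophin receptor p75, had 8.61 and 9.01 CPM at 3 days and 2.48 and 1.84 CPM at 1 day (2.03 ± 0.13). ALK, a receptor kinase mutated in some neuroblastomas, had 63.8 and 64.3 CPM at 3 days and 30.4 and 29.5 CPM at 1 day (1.10 ± 0.04). RET, the receptor for the GDNF family, had 3.16 and 2.68 CPM at 3 days and 3.79 and 4.23 CPM at 1 day (-0.46 ± 0.13), after 0.769 and 0.792 CPM in DMSO cells, and stood at 25.3 and 24.7 CPM at 6 days. Among ligands, VEGFC rose by 1.31 ± 0.11, and PGF, placental growth factor, had 8.23 and 8.11 CPM at 3 days and 26.4 and 27.5 CPM at 1 day (-1.72 ± 0.07). NRG3 fell by 1.51. INHBA was called up (1.25 ± 0.38) but lost the call by DESeq2 (adjusted p = 0.0957), without 1 day library 2 (FDR 0.0827) and without 3 day library 1 (FDR 0.134). FGFR3, a fibroblast growth factor receptor, fell by 1.09 ± 0.23. Of 40 Wnt pathway genes 5 were called up (2.87% of all genes), with WNT11 (2.59 ± 0.21), WNT5A (1.69 ± 0.20), WNT2B (1.23 ± 0.18) and the receptor FZD7 (1.17 ± 0.22) at over 1 CPM, and DKK1 and FZD8 were called down (1.22% of all genes). FZD8 missed 2-fold without 3 day library 2 (-0.976).

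Among factors of lineage, 12 of 18 adrenergic core genes fell (17.6% of all genes) and 2 rose (16.9%) at an FDR under 0.05, with a median of -0.26. ISL1 had 15.6 and 14.4 CPM at 3 days and 31.7 and 29.4 CPM at 1 day (-1.03 ± 0.06), and it missed 2-fold without 1 day library 1 (-0.976) or 3 day library 2 (-0.968). SIX3 was called down (-1.03 ± 0.22) and missed 2-fold without 1 day library 1 (-0.982) or 3 day library 1 (-0.884). PRRX1, a factor of the mesenchymal state, had 2.71 and 2.86 CPM at 3 days and 5.20 and 6.04 CPM at 1 day (-1.01 ± 0.13), and it missed 2-fold without 1 day library 2 (-0.897) or 3 day library 1 (-0.972). HES4, a Notch target, fell by 1.74 ± 0.23 at under 3 CPM. Of 17 catecholamine genes 8 rose and 4 fell at an FDR under 0.05 (median 0.10), with 2 called up, TH and SLC18A1, both under 1 CPM, and 2 called down. GCH1, which makes the cofactor of catecholamine synthesis, had 19.5 and 20.02 CPM at 3 days and 40.6 and 42.5 CPM at 1 day (-1.07 ± 0.06), and the norepinephrine transporter SLC6A2 fell by 1.33 ± 0.30.

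Matrix, channel and stress genes had scattered calls. Of 53 collagen, laminin and integrin genes 5 were called up (2.87% of all genes) and 3 down (1.22%). COL5A1 had 134.3 and 132 CPM at 3 days and 57.4 and 59.2 CPM at 1 day (1.19 ± 0.03), COL25A1, a neuronal membrane collagen, had 52.0 and 52.7 CPM at 3 days and 19.6 and 21.6 CPM at 1 day (1.35 ± 0.05), and ITGA4 and COL6A3 fell by 1.23 and 1.40. Of 56 voltage-gated channel genes 3 were called up, KCND3 (1.35 ± 0.16) and CACNA2D2 (1.03 ± 0.09) at over 1 CPM, and SCN9A was called down (-1.08 ± 0.29), a call lost without 1 day library 2 (FDR 0.0567) and past the FDR but not 2-fold without 3 day library 1 (-0.900). The glycolytic aldolase ALDOC rose by 1.17 ± 0.07 and, among stress genes, DDIT4, an inhibitor of mTOR signaling, had 55.5 and 53 CPM at 3 days and 23.5 and 21.4 CPM at 1 day (1.27 ± 0.05). STC2 fell by 1.45 ± 0.16 and the cystine transporter SLC7A11 by 1.16 ± 0.11. Of 13 protein-coding transcripts of the mitochondrial genome 11 fell at an FDR under 0.05 (17.6% of all genes, median -0.38), and MT-ND1 fell by 0.51 ± 0.02. Mitochondrial genes held 2.05% to 2.06% of counts at 3 days and 2.42% to 2.47% at 1 day. The mitochondrial ribosomal RNA MT-RNR2 had 39.9 and 12.8 CPM at 3 days and 15.9 and 182 CPM at 1 day, so that 1 day library 2 stood apart from its replicate in it. The part of this library difference in the results was not tested, apart from the values given without that library.

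In GRCh38 some of the genes described above lie as follows: FIBCD1 (ENSG00000130720.13) at chr9:130902438-130939286, VGF (ENSG00000128564.7) at chr7:101162509-101165569, CRB1 (ENSG00000134376.16) at chr1:197268204-197478455, HSPA6 (ENSG00000173110.8) at chr1:161524540-161526894 and INSIG1 (ENSG00000186480.13) at chr7:155297776-155310235. Sizes are less certain for genes that overlap another gene, since the strand setting of the counting was not given in the sources used here. Of the genes with values above these are ETV4, ETV5, BDNF, DKK1, ISLR2, TMEM56, RYR3, B3GAT2, ACTA2, ID2, TGM2, TP53INP1, DRAXIN, SEMA4G, EPHB4, NEGR1, ALK, INHBA, WNT2B, FZD8, SLC6A2, ITGA4, KCND3, HAND2 and DBH. Genes given with values though no naming rule covers them were chosen after their values were seen. These are ETV1, DUSP6, JUN, JUND, RARB, the sterol genes apart from INSIG1 and FDFT1, RRM2, MKI67, TOP2A, CDKN1A, BCL2, MT-ND1, MT-RNR2, CLDN5, and the called genes under 1 CPM.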

How the data were processed

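Per the labels and the study's methods, the authors extracted total RNA from CHP-134 cultures, prepared ribosomal RNA-depleted stranded libraries, and estimated gene counts with RSEM 1.3.3 after adapter removal (Trim Galore 0.4.4) and STAR 2.7.10a alignment on hg38. The deposited table holds these expected counts, with no normalization. All its columns, those of ATRA included, carry the word Ctrl, whose sense is not given in the sources used here, and each was matched to its sample by the day and number that end its name. The annotation release and strand setting were not given in the sources used here. Counts were rounded to whole numbers. Genes were kept by edgeR's filterByExpr (minimum count 10), scaled by TMM and tested with edgeR 4.0.16 (quasi-likelihood, robust, R 4.3.3) over all 8 culture libraries in 4 groups, leaving 4 residual degrees of freedom. SE is the log2 fold change over the square root of F. A call needs an FDR under 0.05 and over 2-fold. Libraries held 31607051 to 39422897 counts. Intervals cover counting error only.

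Alternatives were DESeq2 1.42.0 and its size factors, other count minimums and folds, protein-coding genes, the 4 libraries alone, non-robust fits, the replicate block, and each DMSO, 1 day and 3 day library left out in turn. Where 1 library is left, it is assumed to vary like the other groups. Named were called genes of at least 1 CPM at either time: the 10 largest second-wave rises and falls among coding genes, the 8 largest of each other class, called members of 42 gene lists, and ID1 to ID4, MYCN, RARA and RET. A few genes are not reported here. Members and lists were chosen with earlier results of these data known. Promoter sequences are RefSeq, GRCh38.p14. The other 9 samples were not used.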

Additional observations from a re-analysis of the deposited data

How the results depend on the processing

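DESeq2 called 540 genes, 377 up and 163 down, of which 525 were among the 827 of edgeR. It gave 259 second-wave rises, 4 and 9 reversals of rises and falls, and 10 and 17 that moved back at any fold. A minimum count of 50 gave 539 calls with 137 down, 268 second-wave rises and 110 falls, 5 and 10 reversals, and 14 rises that moved back. Without a filter on low counts there were 24 and 32 reversals. Protein-coding genes alone gave 545 calls with 363 up, 258 second-wave rises and 9 genes that rose and then fell. A first-day change under 0.5 (log2) left 210 second-wave rises and 122 falls. An FDR under 0.05 at any fold gave 6980 calls, 3410 up and 3570 down, and a 1.5-fold limit gave 1610, 1073 and 537. With 1 day library 1 in the first contrast and library 2 in the second there were 8 and 11 reversals and 19 falls that moved back, and with the libraries exchanged 13 falls were reversed while 16 rises and 19 falls moved back. Genes of at least 1 CPM, a limit chosen after seeing the data, gave 449 calls (305 up, 144 down), 184 and 121 second-wave changes, 5 and 8 reversals, and 16 and 18 that moved back. Fewer genes entered the count under a higher minimum, among coding genes and at 1 CPM, and the cause of the other shifts was not tested.

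Leaving out each DMSO, 1 day and 3 day library in turn (the 6 day libraries stayed in) gave 727 to 843 calls, 13 to 45 and 21 to 43 reversals, and 19 to 56 rises and 30 to 56 falls that moved back. These totals do not show that the same genes were called each time. Without a 1 day or 3 day library, many of the 827 calls were lost and other genes were called. Fits without a DMSO library kept far more of the 827. The labels do not say whether libraries with the same replicate number are linked. Their deviations had a correlation of -0.0104 for 3 days and 1 day, which cannot settle this because counting noise can mask a link. A fit with the replicate block called 812 genes, 572 up and 240 down, 798 of them shared. It gave 421 and 200 second-wave, 130 and 26 extended and 14 and 21 reversed changes, and 24 and 31 that moved back. Of 137 named genes 13 changed their call under some alternative, in 31 of 1777 values, and 0 reversed. Each is given with its values in the report. Genes under 1 CPM limit what depth can show, at 2 libraries per group.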

Other observations

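Other genes with levels above 100 CPM were called between 1 and 3 days without falling under the naming rule, and the ones given here were chosen after their values were seen. A pair of regulators of G protein signaling, which shorten the signal of G protein-coupled receptors, were extended rises. RGS16 had 173 and 170.2 CPM at 3 days and 49 and 45.9 CPM at 1 day (log2 fold change 1.85 ± 0.03), and RGS8 had 172 and 175 CPM at 3 days and 57.4 and 59.2 CPM at 1 day (1.57 ± 0.03). CABP7, a neuronal calcium-binding protein, had 209 and 214 CPM at 3 days and 48.8 and 47.7 CPM at 1 day (2.13 ± 0.03). POU3F1, a POU domain transcription factor of the nervous system, had 178 and 179.5 CPM at 3 days and 62.1 and 63.1 CPM at 1 day (1.51 ± 0.03), and GLI3, a transcription factor of the Hedgehog pathway, had 294 and 289 CPM at 3 days and 133 and 138 CPM at 1 day (1.11 ± 0.03). In all 5 genes the libraries of both times did not overlap.

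ASS1, the arginine synthesis enzyme argininosuccinate synthase, peaked at 1 day like VGF. ASS1 had 311 and 314 CPM in DMSO cells, 593 and 581 CPM at 1 day and 255 and 249.9 CPM at 3 days (-1.22 ± 0.02). Its first-day change of 0.91 stayed under the 2-fold limit, so ASS1 is counted among the second-wave falls and not among the reversals. IGSF1, a membrane glycoprotein, had 54.8 and 54.9 CPM at 3 days and 133.5 and 135 CPM at 1 day (-1.29 ± 0.03), and MFAP4, a protein of elastic fibers, fell by 1.23 ± 0.03.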
